A study of Mus musculus with 8 samples.

Results

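Genes of the nuclear pore and of nuclear transport were compared between 2 fractions of mouse fetal liver stem and progenitor cells. The members were all symbols that begin with Nup, Ipo, Xpo, Kpna or Kpnb followed by a digit, plus Ran, Rcc1, Rangap1, Tpr and Nxf1. There were 43 such genes among 14033 symbols in the authors' deposited table, each with a single row. Embryos came from Flt3-Cre mice crossed to the mTmG reporter strain and were taken at E14.5. In these cells a ubiquitous promoter drives membrane Tomato until Cre excises it, after which GFP is made for good, so GFP+ cells carry a history of Flt3-Cre activity and Tomato+ cells had not recombined. Both fractions were lineage-negative, Kit+ and Sca1+ and were sorted by flow cytometry, with 4 libraries each. CD150 was part of the sort, and the sample titles give it without a sign. The labels do not say whether libraries came from separate embryos, litters or sorts, so the p-values may measure technical spread only.

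The nuclear pore is a ring-shaped channel through the nuclear envelope. Its scaffold is built from an outer ring of Y-shaped complexes and an inner ring, and its channel is filled by nucleoporins with phenylalanine-glycine (FG) repeats that form the permeability barrier. Importins and exportins carry cargo through this barrier. The small GTPase Ran gives the traffic its direction, since Rcc1 loads Ran with GTP on chromatin while Rangap1 triggers GTP hydrolysis on the cytoplasmic side.

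The authors' table holds a mean normalized count for each fraction and no value per library, so the means below carry no SD, and whether single libraries overlap was not analysed here. The group means of the genes encoding the sorted receptors Kit and Sca1 (Ly6a) did not differ past the threshold, at 4087 and 4950 for Kit and 59.5 and 70.1 for Ly6a in GFP+ and Tomato+, from the authors' deposited table. For Slamf1, the gene of the CD150 gate, the authors' deposited table gives 27.9 and 119, and it passed as lower in GFP+. Of the 7 measured surface genes of the sort and its relatives, 1 passed as higher (Flt3, with 3753 and 1617) and 2 as lower (Slamf1 and Procr, the latter with 89.9 and 259), in the table the authors deposited. Markers of other fetal liver cells were higher in GFP+, where 4.86% of all rows passed as higher. In that direction 14 of 17 measured hepatoblast genes, 13 of 15 macrophage genes and 15 of 19 erythroid genes passed. Their summed means in GFP+ and Tomato+ were 4188 and 2213 for the hepatoblast list, 2202 and 656 for the macrophage list, and 42382 and 15697 for the erythroid list. The 2 highest means were those of Dlk1 (811 and 993) and Afp (885 and 157) among hepatoblast genes and of Csf1r (353 and 150.5) and Hmox1 (332 and 76.2) among macrophage genes, from the authors' deposited table. No row at all had a mean of 0 in either fraction, so this holds for every measured marker, and listed genes without a row have no value. Among 10 measured B lymphoid genes, 5 passed as higher and 0 as lower, and Cd79b (269 and 207) and Cd79a (69.9 and 8.72) had the highest means by the authors' deposited table. The part of such cells in the values below was not tested, and in bulk libraries fewer cells of a type and less RNA per cell cannot be told apart.

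Most of the transport machinery differed little in mean level between the fractions. At the authors' adjusted p under 0.05, 3 of 43 members rose in GFP+ cells and 0 fell: the importin alpha gene Kpna2, the exportin gene Xpo7 and Ran itself. That is 6.98% of the members, against 7.49% of all 14268 rows called in either direction, 4.86% called higher and 2.64% called lower. Among the 7348 rows with an overall mean of at least 200 normalized counts, a level that 42 of the 43 members reach, 8.3% were called in either direction and 5.82% as higher. The share of called members is therefore near the background.

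The other 40 members did not pass, with log2 values (GFP+ mean over Tomato+ mean) from -0.49 to 0.44. At an unadjusted p under 0.05 there were 7 members, or 16.3%, against 16.2% of all rows. Of the 43 members, 42 lay within 0.5 of 0 on the log2 scale (97.7%), as did 77.3% of all rows and 93.2% of rows with an overall mean of at least 200. The median log2 of the members was 0.13, against 0.01 for all rows and 0.06 for rows with an overall mean of at least 200. With the authors' scaling 37 members were above 0 and 6 below, and with both groups scaled to the same total, which by construction lowers every log2 value by 0.16, 17 were above and 26 below. The share of members above 0 was 86.0%, against 51.2% of all rows and 60.0% of rows with an overall mean of at least 200. With equal totals these shares were 39.5%, 30.9% and 32.0%. Equal totals put the median of the members at -0.024 and that of rows with an overall mean of at least 200 at -0.10. The 3 called genes were above 0 under both scalings.

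**Figure D1:**
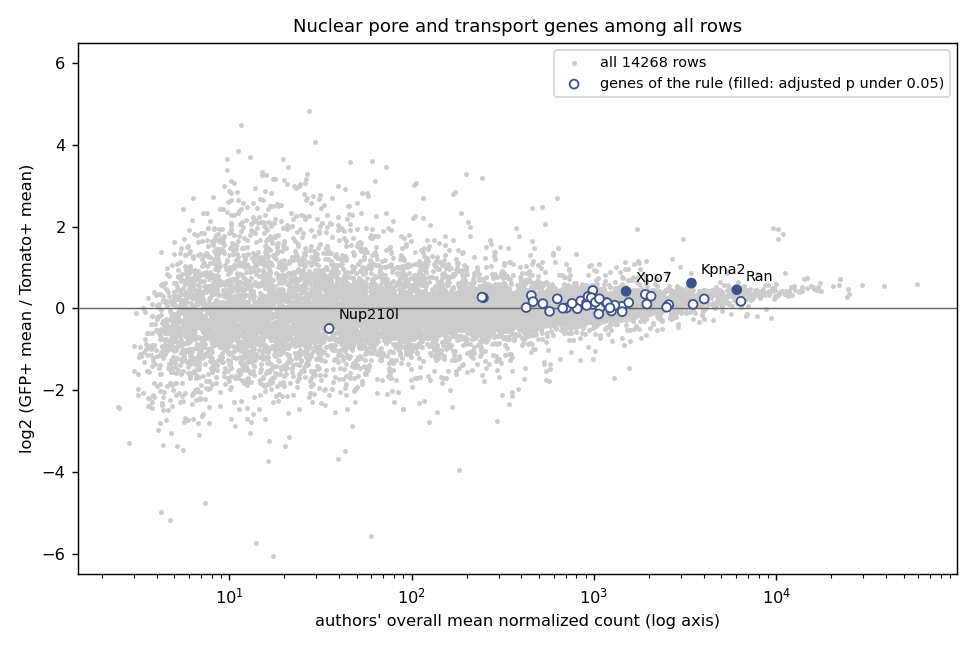
Log2 of the GFP+ mean over the Tomato+ mean (y axis) against the authors' overall mean normalized count (x axis, log scale) for all 14268 rows in grey and the 43 nuclear pore and transport genes in blue. The members lie in a narrow band between -0.49 and 0.62, and Nup210l, with an overall mean of 35.3, stands apart at low counts.

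Among the Ran cycle genes, Ran averaged 7022 normalized counts in GFP+ and 5116 in Tomato+ by the authors' means. It was 1.37-fold higher in GFP+ (log2 0.46, adjusted p = 0.00519, from the authors' deposited table). RefSeq gives the gene Rasl2-9 the synonym Ran, and no source used here says how reads shared by the pair were counted. Rangap1, the GTPase activator, had means of 2268 and 1843 (log2 0.30, adjusted p = 0.204, from the authors' deposited table) and Rcc1, the exchange factor, 1158 and 983 (log2 0.24, adjusted p = 0.372, from the authors' deposited table). Rangap1 and Rcc1 did not pass. The class had the highest median among the classes of members, at 0.30, and that median was 0.14 with equal totals.

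Outside the rule, Ranbp1, which binds Ran-GTP and assists its hydrolysis by Rangap1, rose as well. It averaged 3000 in GFP+ against 2214 in Tomato+, which is 1.36-fold (log2 0.44, adjusted p = 0.00467, from the authors' deposited table). In GENCODE M21 the exons of Ranbp1 share bases with Gm49776 on the same strand and with Trmt2a on the opposite strand. No source used here says whether counting used strand, so reads of these genes may not be told apart. Ranbp10, a Ran-binding family member known to bind tubulin in megakaryocytes, also rose, from 542 to 634 (log2 0.23, adjusted p = 0.0162, from the authors' deposited table). Ranbp3, Ranbp9, Nutf2 and Rangrf completed the 6 measured genes grouped here as Ran partners and did not pass. The log2 values of all 6 lay between 0.08 and 0.44 with a median of 0.22, before the 0.16 that equal totals subtract. Nutf2, which brings Ran-GDP into the nucleus, stood at log2 0.21 (adjusted p = 0.314, from the authors' deposited table).

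Importin alpha proteins are adaptors that read the classical nuclear localization signal and hand the cargo to importin beta. Kpna2, the importin alpha typical of dividing and embryonic cells, averaged 4147 normalized counts in GFP+ and 2699 in Tomato+. It was 1.54-fold higher in GFP+ (log2 0.62, adjusted p = 0.000362, from the authors' deposited table), the largest value among the 43 members. RefSeq lists a pseudogene, Kpna2-ps, and no source used here says how shared reads were counted.

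By the authors' deposited table, no other importin alpha gene passed. Kpna3 averaged 1055 in GFP+ against 879 in Tomato+ (log2 0.26), Kpna1 680 and 578 (0.23), and Kpna4 1073 and 965 (0.15). Kpna6 was the exception in sign, with 556 and 585 (log2 -0.07). Whether Kpna2 differed more than these paralogs was not tested, since no values per library were analysed. Proliferation genes lay in the same direction as Kpna2: 36 of 37 had a log2 above 0, their median was 0.29, 5 passed as higher and 0 as lower, and their summed means were 79358 in GFP+ and 65141 in Tomato+. The 2 with the highest means, Mki67 and Top2a, stood at log2 0.30 and 0.36 by the authors' deposited table. Of the 37 proliferation genes, 21 had an unadjusted p under 0.05 in the authors' deposited table, against 16.2% of all rows. Among rows with an overall mean of at least 200, 60.0% had a log2 above 0 and 5.82% passed as higher. Equal totals subtract 0.16 from every log2 value. The part of proliferation in the Kpna2 value was not tested.

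**Figure D2:**
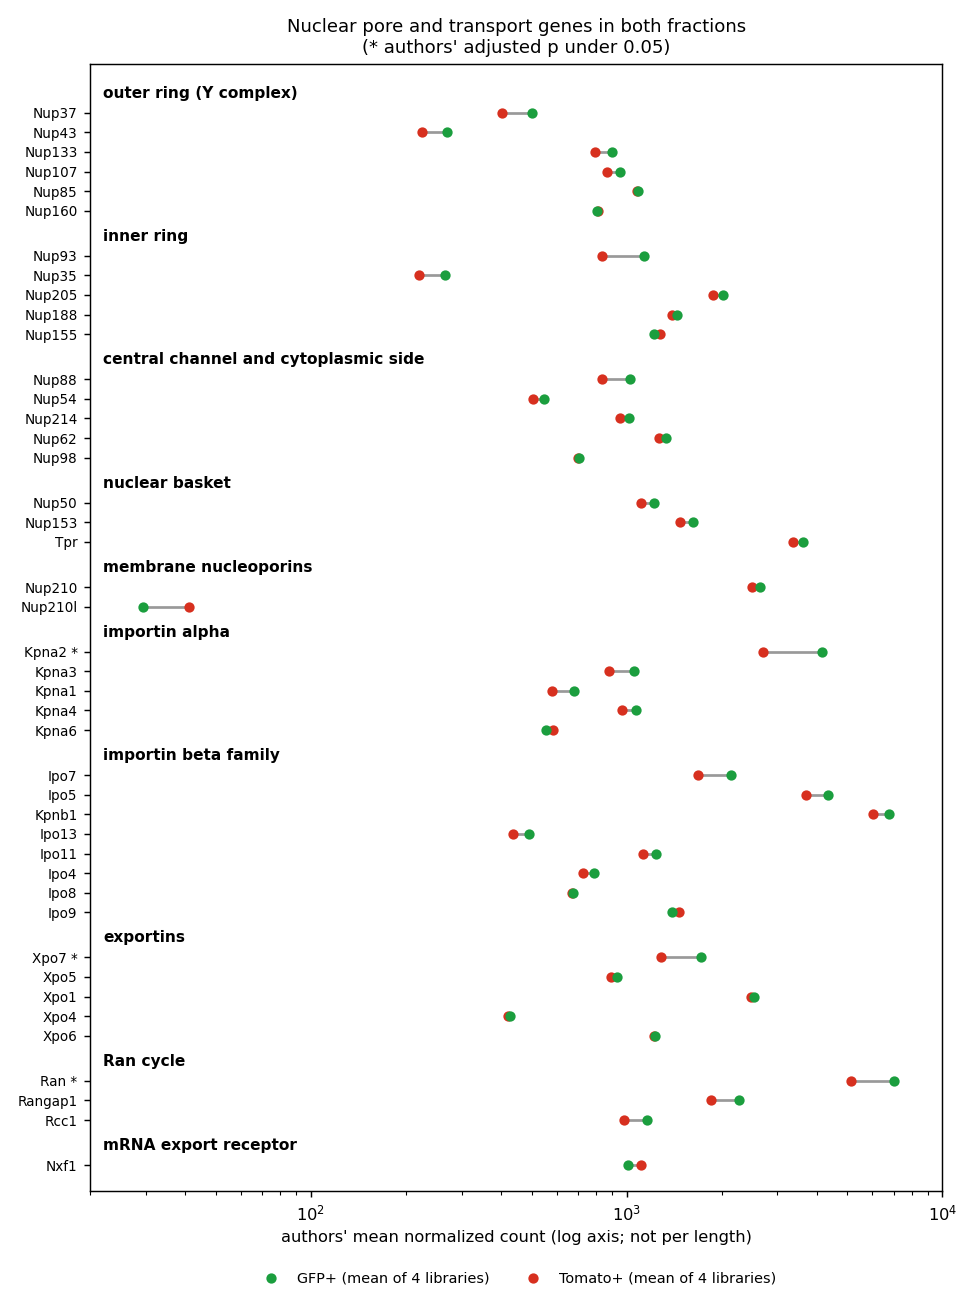
Authors' mean normalized count (x axis, log scale, not divided by gene length) of each of the 43 members in GFP+ (green) and Tomato+ (red), grouped by class. Most pairs of points nearly coincide; the widest gaps at high counts are those of Kpna2 (4147 and 2699) and Ran (7022 and 5116), and an asterisk marks the 3 genes past the authors' adjusted p of 0.05.

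None of the 8 importin beta family genes passed. Kpnb1, the importin beta that carries importin alpha and its cargo, averaged 6779 in GFP+ against 6010 in Tomato+ (log2 0.17, adjusted p = 0.777, from the authors' deposited table). Ipo7 and Ipo5, both carriers of ribosomal proteins and histones, had means of 2139 and 1687 (log2 0.34) and of 4342 and 3699 (log2 0.23) in the authors' deposited table. Ipo7 had an unadjusted p of 0.0373 and an adjusted p of 0.258 there. Ipo13, which works in both directions, had 490 and 437 (log2 0.17), Ipo11 1237 and 1124 (0.14) and Ipo4 790 and 726 (0.12), per the authors' deposited table. Ipo8 was nearly equal, at 675.1 and 672.7. Ipo9, a histone importer, had 1388 and 1467 (log2 -0.08), the only value below 0 in this class.

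Exportins form complexes with cargo and Ran-GTP in the nucleus and release them in the cytoplasm. Xpo7, known in mouse erythroid cells for its role in nuclear condensation, averaged 1715 normalized counts in GFP+ and 1285 in Tomato+. It was 1.34-fold higher in GFP+ (log2 0.42, adjusted p = 0.000362, from the authors' deposited table). The remaining 4 exportin genes did not pass and had log2 values between 0.01 and 0.07. Xpo1 (CRM1), the receptor for leucine-rich export signals, had 2525 and 2477 in the authors' deposited table. Xpo5, which exports microRNA precursors, had 934 and 889, Xpo4 428 and 422, and Xpo6, the exporter of actin, 1229 and 1218. The class median was 0.03 and turned to -0.13 with equal totals.

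Erythroid markers moved with Xpo7: 15 of 19 passed as higher and 1 as lower, with a median log2 of 0.79. Of those called higher, Cpox and Rhag had log2 values of only 0.02 and 0.15. Both are less than the 0.16 that equal totals subtract. The globin genes Hbb-b1 and Hba-a2 led them, with 15589 and 16122 normalized counts in GFP+ against 4780 and 4190 in Tomato+ by the authors' deposited table. Regulators of the same list lay on the other side: Gata1 fell (log2 -1.06, adjusted p = 0.021, from the authors' deposited table), and Epor and Klf1, at log2 -0.89 and -0.46, did not pass. These 3 were chosen after their values were seen. The part of erythroid cells in the Xpo7 value was not tested. In GENCODE M21 an exon of Xpo7 shares bases with Npm2 on the same strand, so some of its reads could be counted to either gene.

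No nucleoporin of the rule passed: of 21 genes, 0 rose and 0 fell, 2 had an unadjusted p under 0.05, and the median log2 was 0.11. In the outer ring, the Y complex that tiles both faces of the pore, log2 values ran from -0.01 to 0.32 with a median of 0.16. Nup37 had 503 and 404 normalized counts in GFP+ and Tomato+ and Nup43 270 and 225, both peripheral members of the complex, at log2 0.32 and 0.26 by the authors' deposited table. Nup133 had 899 and 793 and Nup107 952 and 869, while Nup85 with 1086 and 1076 and Nup160 with 808 and 812 were nearly equal. The outer ring median was 0.00019 with equal totals.

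The inner ring held the nucleoporin with the largest difference in means. Nup93, the linker that ties the ring to the channel, averaged 1133 in GFP+ against 837 in Tomato+, a ratio of 1.35 (log2 0.44, unadjusted p = 0.0383, adjusted p = 0.262, from the authors' deposited table). It did not pass. Nup35 had 266 and 220.1 (log2 0.27) and Nup205 2021 and 1879 (log2 0.11) in the authors' deposited table. Nup188, the paralog of Nup205, had 1446 and 1396, and Nup155, which contacts the membrane, 1219 and 1275 (log2 -0.06).

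In the central channel and on the cytoplasmic side, log2 values ran from 0.01 to 0.29. Nup88, which holds Nup214 at the cytoplasmic face, had 1022 and 835 (log2 0.29, unadjusted p = 0.049, adjusted p = 0.304, from the authors' deposited table). Its partner Nup214, an FG nucleoporin at the exit for mRNA, had 1018 and 952 (log2 0.10). The channel FG nucleoporins Nup62 and Nup54 had 1335 and 1265 and 546 and 504. Nup98, which carries GLFG repeats, had 708 and 703, the smallest gap of this class.

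The nuclear basket genes lay close together, with log2 values from 0.10 to 0.14 in the authors' deposited table. Nup153, which anchors the basket, had 1627 and 1475, Nup50 1222 and 1107, and Tpr, the filament protein of the basket, 3614 and 3373. Of the membrane nucleoporins, Nup210 had 2651 and 2488 (log2 0.09). Its testis paralog Nup210l was the lowest member, with 29.4 in GFP+ and 41.3 in Tomato+ (log2 -0.49, adjusted p = 0.73, from the authors' deposited table), and it also had the most negative log2 of all members. Of 9 pore proteins outside the rule, 0 passed. Seh1l, Sec13, Ahctf1, Aaas, Ndc1 (listed as Tmem48) and Pom121 were grouped here as scaffold, and Nupl1, Nupl2 and Ranbp2 as FG nucleoporins. The medians were 0.11 for the scaffold group and 0.01 for the FG group. The most abundant of each by mean count, Ahctf1 and Ranbp2, stood at log2 -0.06 and 0.01 by the authors' deposited table.

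Nxf1, the general export receptor for mRNA, had 1012 in GFP+ and 1111 in Tomato+ (log2 -0.14, adjusted p = 0.973, from the authors' deposited table) and did not pass. Of 24 measured partners in mRNA export (cofactor Nxt1, the Thoc subunits of the THO complex, the adaptor Alyref, listed as Thoc4, and the helicases among them), 0 passed and 3 had an unadjusted p under 0.05. Their median log2 was 0.14, and the helicase with the highest mean, Ddx39b (listed as Bat1a), had 3694 and 3384 by the authors' deposited table. Of 5 import receptors outside the rule and 4 export receptors, 0 passed. Tnpo1, transportin, had 1801 and 1771, and Xpot, the tRNA exporter, 1933 and 1867 by the authors' deposited table. Of 5 genes of SUMO conjugation, which modifies Rangap1 at the pore, 0 passed, and the median log2 was -0.05.

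In the nuclear lamina and envelope, 9 of 13 measured genes had a log2 below 0 with the authors' scaling, and 1 of them passed. Syne2, the giant nesprin that links the nucleus to actin, fell in GFP+ from 526 to 282, and was 1.87-fold lower (log2 -0.90, adjusted p = 9.38e-05, from the authors' deposited table). The other 12 genes of this group did not pass, and the median of all 13 was -0.04. Lmnb1, the B-type lamin with the highest mean, had 4119 and 3474 (log2 0.25) in the authors' deposited table. Over all 66 measured partner genes of 70 listed, 2 rose and 1 fell, with a median log2 of 0.07. That is 4.55% of the partners called, against 7.49% of all rows and 8.3% of rows with an overall mean of at least 200.

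**Figure D3:**
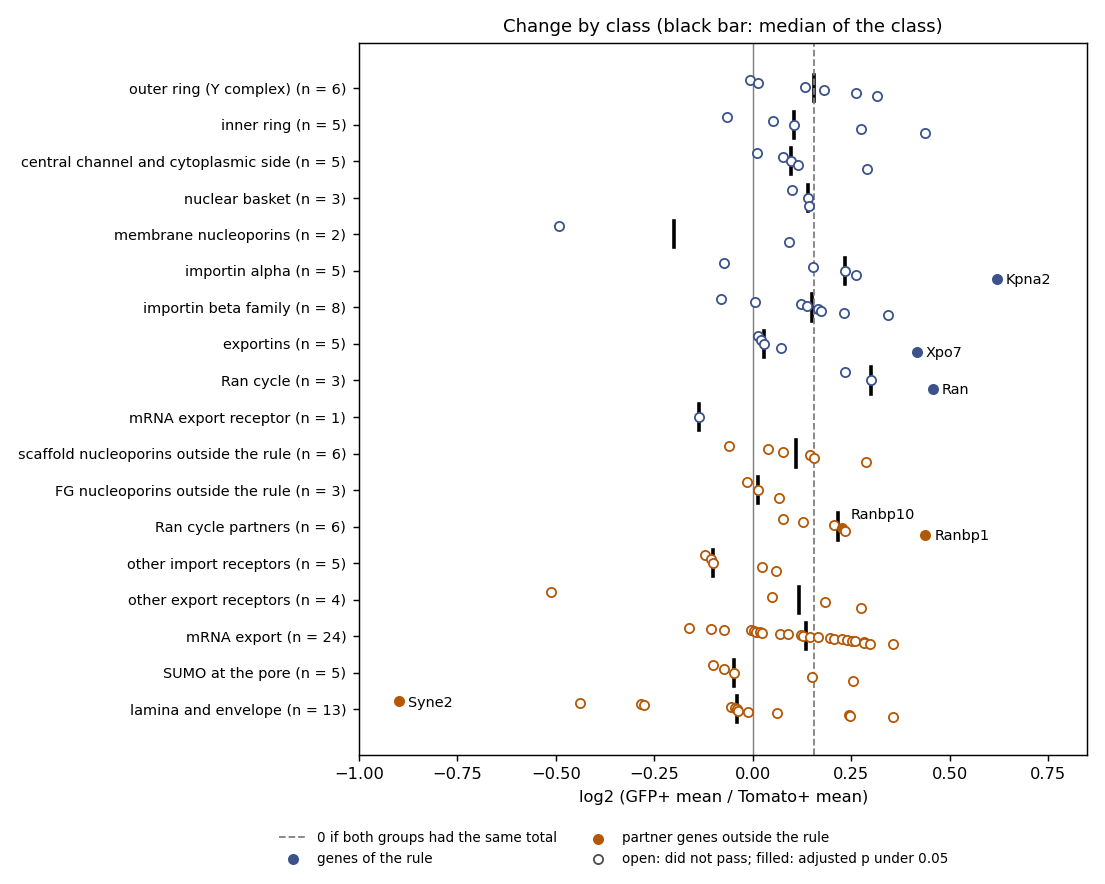
Log2 of the GFP+ mean over the Tomato+ mean (x axis) of each member (blue) and each partner gene outside the rule (orange), by class, with a black bar at the class median and filled points for genes past the authors' adjusted p of 0.05. The dashed line at 0.16 is where 0 would lie if both groups had the same total; Kpna2, Ran, Xpo7, Ranbp1 and Ranbp10 pass to its right and Syne2 on the far left.

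The sequences before the start sites of Ran, Kpna2 and Ranbp1 are shown, as transport genes that rose and whose promoter is in the RefSeq table (GRCm38.p6, another build than the mm9 of the counts). These genes were picked after the values were seen. Xpo7 had no entry there, and Ranbp10, which also rose, is not shown. Each run starts 250 bases before the RefSeq start and ends before the earliest GENCODE M21 transcript start of the same gene in that window. Starts of other genes were not looked for. The exons of Ranbp1 share bases with Trmt2a on the opposite strand, so the Ranbp1 run may also belong to Trmt2a. Ran lies at chr5:129019906-129020068 on the plus strand, Kpna2 at chr11:106999542-106999775 and Ranbp1 at chr16:18248733-18248944 on the minus strand, all upstream of the gene. Capitals mark matches on either strand to 4 motifs, the E-box CACGTG, the CCAAT box, the cell cycle homology region TTTGAA and the GC box GGGCGG, chosen after the values were seen.
Ran: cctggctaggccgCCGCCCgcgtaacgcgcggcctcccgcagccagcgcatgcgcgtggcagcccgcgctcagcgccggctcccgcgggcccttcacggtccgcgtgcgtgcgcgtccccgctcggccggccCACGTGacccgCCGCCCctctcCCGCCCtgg
Kpna2: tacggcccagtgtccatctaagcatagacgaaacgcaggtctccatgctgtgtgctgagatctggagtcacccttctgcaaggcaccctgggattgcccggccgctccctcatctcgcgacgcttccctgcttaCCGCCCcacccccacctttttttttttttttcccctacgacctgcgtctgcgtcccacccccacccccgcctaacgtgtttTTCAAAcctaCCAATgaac
Ranbp1: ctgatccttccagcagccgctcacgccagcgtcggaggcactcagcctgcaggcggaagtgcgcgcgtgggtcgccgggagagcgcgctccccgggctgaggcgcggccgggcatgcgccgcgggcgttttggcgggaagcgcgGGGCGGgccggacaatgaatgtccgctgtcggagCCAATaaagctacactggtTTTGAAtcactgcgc

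The Ran run holds 1 CACGTG and 3 GGGCGG matches. Kpna2 and Ranbp1 each hold 1 TTTGAA, 1 CCAAT and 1 GGGCGG match, with CCAAT 25 bases before the start in Kpna2 and 72 in Ranbp1. No motif overlaps another in these runs. Over the 250 bases before the start, 34 of 43 members had an entry, and CACGTG was found in 14.7% of them, against 10.99% of 5298 genes with an overall mean of at least 200 and 6.86% of all 27025 genes of the table. CCAAT was found in 17 of the 34 members, against 40.7% and 37.5%, TTTGAA in 20.6%, 12.4% and 18.3%, and GGGCGG in 70.6%, 67.8% and 35.4% of the members and of these 2 groups. A gene with several starts counts once if any window holds the motif. E-boxes also lay before Ipo7, Nup93, Nup54 and Nup188, of which none passed the threshold. Both CCAAT and TTTGAA were also found for Nup37, Nup98 and Tpr, and GGGCGG for Nup98 as well. None of these passed either, so the pair was not particular to genes that rose. A match describes letters in this window and not a site in use.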

How the data were processed

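RNA was measured in 8 libraries of sorted cells, 4 GFP+ and 4 Tomato+, prepared with Trizol and the NEBNext Ultra kit per the labels' protocols. Per the submitters' processing notes DESeq, bedtools, TopHat, TopHat2 2.0.11 and Bowtie2 2.2.1 were used with build mm9, with no role or setting named. The authors deposited, per the file headers, a mean signal (normalized count) per row over all libraries and per fraction, a fold ratio with its log2, and each row's p-value before and after adjustment. The ratio is Tomato+ over GFP+, so the sign was turned here. A repeated header line after 1374 rows was dropped. The adjusted p equalled a Benjamini-Hochberg adjustment over all 14268 rows within 5.3e-08.

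No library values were analysed, so depth, SDs and new tests across libraries are not given, and the authors' adjusted p under 0.05 was the threshold. Group means are not divided by gene length and were compared between fractions only, with no pseudocount. Members and lists were chosen with earlier results of these data known. Every member is named; of partner genes, those past the threshold and the highest mean of each class, 1 of which is not reported here; of marker lists, counts and the 2 highest means. Other named genes were chosen after their values were seen. Classes of members follow the known architecture of the pore. Partners were matched through older symbols where needed. Planned counts of protein repeats were not made, since no protein table was at hand. List counting was tested on simulated data. Python 3.11.15 and pandas 2.3.3 were used.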

Additional observations from a re-analysis of the deposited data

How the results depend on the processing

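No paired analysis was possible because values per library were not analysed here. For this reason a replicate block, other size factors, removal of a low-count filter and leaving out single libraries were not run. The depth behind each mean is unknown.

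The 3 calls among members were also 3 at an adjusted p under 0.1 or 0.01, with a minimum mean of 50 and with the row of smallest p. They were 1 when a log2 of at least 0.5 was required (Kpna2) and 0 with Bonferroni adjustment of the authors' DESeq p-values, with 7 members at an unadjusted p under 0.05; both are stricter criteria. Partner calls were 3, and 2 to 3 under the alternatives. The median log2 of members of 0.13 turned to -0.024 with equal totals, since that scaling subtracts 0.16 from every gene. Without that setting it stayed above 0 in every alternative run, including without the Ran cycle genes (0.12) and relative to rows with an overall mean of at least 200 (0.08), both chosen after seeing the data. The same shift puts the median of rows with an overall mean of at least 200 at -0.10. Apart from it, 2 class medians changed sign: exportins, from 0.03 to -0.0029 when centred, and the membrane nucleoporins, from -0.20 to 0.09 without Nup210l, whose mean is below 50. Kpna2, Xpo7 and Ran had log2 values of 0.46, 0.26 and 0.30 with equal totals.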

Other observations

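Genes with like changes had unlike p-values. Xpo7 and Nup93 had log2 values of 0.42 and 0.44 at overall means of 1500.0 and 985 normalized counts, with unadjusted p = 8.77e-06 and 0.0383 in the authors' deposited table. Ranbp10 and Kpna1, with log2 values of 0.23 and 0.23 and overall means of 588 and 629, had p = 0.000879 and 0.237 in the authors' deposited table. The spread between libraries was not analysed here. A p of exactly 1 was listed for 5 of the 43 members, Nup85, Nup160, Nup214, Kpna6 and Xpo5, and for 1106 of all 14268 rows.

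Cse1l, which returns importin alpha to the cytoplasm, stood at log2 0.27 (adjusted p = 0.5, from the authors' deposited table) and was chosen after its value was seen. Across the 43 members, the Spearman correlation of log2 with the overall mean was 0.17, and across the 7348 rows with an overall mean of at least 200 it was 0.26; both are across genes of the same libraries, which are not independent replicates.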
